A study of Homo sapiens with 6 samples.

Results

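Ezrin, radixin and moesin are the 3 members of the ERM family, and their mRNA levels were followed in cells given the platinum drug oxaliplatin. The members were the 3 rows of the deposited count table whose gene symbols are EZR, RDX and MSN, out of 27942 rows in all. They were picked by symbol, but with earlier results of these data known, and the study had already listed EZR as up-regulated. HCT116, a human colon carcinoma cell line with wild-type p53, was grown in serum-supplemented RPMI. Sources differ on antibiotics, since the labels name Pen/Strep while the study's methods say that none were used. Polyadenylated RNA was sequenced from 3 libraries of cells exposed to 0.5 µM oxaliplatin for 24 h (OXA) and from 3 libraries of cells that received no drug (NT), so that the groups shared the line and the medium and differed by the drug. Between 32979521 and 40967880 counts were assigned to genes in each library. HCT116 is a single tumor-derived line, and the labels do not state that the replicates came from separate cultures, so p-values measure the spread between these libraries, which may be technical.

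ERM proteins tie the tails of membrane proteins to the actin cortex beneath the plasma membrane. An amino-terminal FERM domain holds the membrane side, a carboxy-terminal tail holds actin filaments, and the molecule stays folded and inactive until the lipid PIP2 binds it and a threonine near its end is phosphorylated. Ezrin is the form best known from epithelia, where it builds the microvilli of the intestinal brush border, whereas moesin is prominent in leukocytes and endothelium and radixin in hepatocytes and hair cells.

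On the GRCh38 assembly with GENCODE v44, EZR (ENSG00000092820) lies on the minus strand at chr6:158765741-158819368, and its MANE Select transcript has 14 exons and 3052 bases. RDX (ENSG00000137710) lies on the minus strand at chr11:109864295-110296712, with 14 exons and 4392 bases in its MANE Select transcript. MSN (ENSG00000147065) lies on the plus strand at chrX:65588377-65741931, with 13 exons and 3960 bases.

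The 250 bases before annotated start sites of the 3 genes are shown as a description. Which start sites these cells used was not tested. Promoter windows came from RefSeq on GRCh38.p14, and the window before the MANE Select start of EZR was read from the GRCh38 genome because the RefSeq start lies 1133 bases inside it. The RefSeq window of EZR, chr6:158818236-158818485, lies in the first intron of the MANE Select transcript. The others are chr6:158819369-158819618 for the MANE Select start of EZR, chr11:110296615-110296864 for RDX and chrX:65667404-65667653 for MSN. Each is written 5′ to 3′ on the strand of its gene, and capitals mark matches on either strand to the AP-1 site TGANTCA and to the GC box GGGCGG. Some GC boxes overlap one another, and the AP-1 match overlaps none.
EZR, RefSeq start: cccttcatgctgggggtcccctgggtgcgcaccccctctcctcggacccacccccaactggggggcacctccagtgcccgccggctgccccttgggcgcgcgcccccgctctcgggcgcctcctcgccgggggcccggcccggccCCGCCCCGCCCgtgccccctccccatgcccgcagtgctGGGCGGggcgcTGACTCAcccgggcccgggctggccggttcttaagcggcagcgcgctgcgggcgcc
EZR, MANE Select start: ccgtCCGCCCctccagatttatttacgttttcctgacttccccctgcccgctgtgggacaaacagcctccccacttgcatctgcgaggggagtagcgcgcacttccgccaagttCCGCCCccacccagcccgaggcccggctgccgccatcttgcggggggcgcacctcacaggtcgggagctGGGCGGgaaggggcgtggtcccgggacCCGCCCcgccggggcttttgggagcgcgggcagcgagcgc
RDX: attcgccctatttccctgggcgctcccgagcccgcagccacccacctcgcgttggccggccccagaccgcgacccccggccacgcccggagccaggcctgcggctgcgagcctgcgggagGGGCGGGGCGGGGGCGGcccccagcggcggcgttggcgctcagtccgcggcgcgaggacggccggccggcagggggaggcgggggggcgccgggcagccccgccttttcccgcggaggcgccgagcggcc
MSN: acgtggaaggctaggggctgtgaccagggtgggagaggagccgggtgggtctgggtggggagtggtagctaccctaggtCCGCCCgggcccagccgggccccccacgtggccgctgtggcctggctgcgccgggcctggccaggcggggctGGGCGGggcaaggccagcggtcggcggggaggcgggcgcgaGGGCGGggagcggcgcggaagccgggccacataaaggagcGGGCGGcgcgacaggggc

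All 4 windows were rich in G and C. The GC content was 80.8% and 70.8% in the EZR windows, 82.0% in that of RDX and 78.0% in that of MSN, against a median of 58.0% over 35116 RefSeq promoter windows of the same length. They held 28, 25, 38 and 26 CpG dinucleotides, against a median of 11. GC boxes numbered 3 in the RefSeq window of EZR, 4 before its MANE Select start, 3 for RDX and 4 for MSN, and 42.6% of all windows held at least 1. The RefSeq window of EZR alone held an AP-1 site, 56 bases before the start, a match found in 6.57% of all windows. A further MSN start site 79277 bases upstream has the window chrX:65588127-65588376, with 57.2% GC, 5 CpG dinucleotides and 1 GC box. The TEAD motif GGAATG, found in 11.9% of all windows, was not among the letters of any of the 5, and neither was a p53 half-site (5.57% of all windows) or a CArG box (1.16%). These matches describe letters and were not tested as sites of binding.

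EZR mRNA rose after oxaliplatin, by 1.60-fold. Counts normalized by TMM, which puts libraries on a common scale, are used from here on unless another scale is named. In NT libraries 1, 2 and 3 EZR had 49838, 57625 and 50340 normalized counts, and in OXA libraries 1, 2 and 3 it had 83949, 87590 and 81668. The OXA values all exceeded the NT values, with a wide gap between the lowest of the former and the highest of the latter. The means were 52601 ± 4358 (SD, n = 3) in NT and 84402 ± 2987 in OXA, a log2 fold change (log2FC) of 0.68 with a standard error (SE) of 0.094 and a 95% interval of 0.47 to 0.90 (edgeR adjusted p = 0.00987). By mean count EZR ranked 38 among the 13727 genes tested, and it took 0.140% to 0.163% of the counts of an NT library and 0.224% to 0.244% of those of an OXA library. By size of change it ranked 940 and by p-value 140 among the same genes. In bulk RNA, more cells that express a gene and more of its RNA per cell cannot be told apart.

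The EZR call was lost in most comparisons of 5 libraries. When 1 library was left out, the log2FC stayed between 0.62 and 0.72, but the edgeR adjusted p passed 0.05 in 2 of 6 fits. It was 0.00471 without NT 1 and 0.0262 without NT 2, and it was 0.0540 without NT 3, 0.0632 without OXA 1, 0.0600 without OXA 2 and 0.0518 without OXA 3. Calls over all genes, 381 higher and 315 lower with every library, moved as well. They were 623 and 571 without NT 1, 153 and 146 without NT 2 and 115 and 69 without NT 3. Without OXA 1 they were 66 and 19, without OXA 2 94 and 32, and without OXA 3 102 and 67. The summed level of the 4 epithelial marker genes that were read beside EZR (EPCAM, CDH1, KRT8 and KRT18) was also higher in OXA, 2800 to 3141 CPM (counts scaled to a common library size) against 1966 to 2650 in NT. Their part in the EZR result was not tested. The keratins carried that sum, KRT8 at a log2FC of 0.47 and KRT18 at 0.31, whereas EPCAM stood at -0.040 and CDH1 at -0.20 (edgeR adjusted p from 0.115 to 0.870 for the 4). In a model blocked by replicate number, KRT8 and KRT18 were higher and CDH1 lower (edgeR adjusted p = 0.0271, 0.0184 and 0.0408). NT 1 was the lowest library for both keratins. The summed intestinal markers (CDX1, CDX2, VIL1 and KRT20) lay at 16.1 to 17.4 CPM in NT and 17.4 to 19.8 in OXA. CDX2 carried that sum, at a log2FC of 0.24, whereas VIL1 stood at -0.38 and KRT20 at -0.48. None of them passed (edgeR adjusted p = 0.283, 0.532 and 0.319), and CDX1 had 0 counts in every library. Stromal markers (COL1A1, COL3A1 and DCN) lay at 3.21 to 8.09 and 4.88 to 7.97 CPM, and endothelial markers (PECAM1, VWF and CDH5) at 0.583 to 0.751 and 0.485 to 0.792.

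MSN was higher in OXA to a smaller degree, and its call depended on whether the libraries were paired. It had 15067, 14757 and 14453 normalized counts in NT libraries 1, 2 and 3, and 18555, 16601 and 17587 in the OXA libraries. OXA stood above NT without overlap, and the NT libraries were tightly bunched. From 14759 ± 307 (SD, n = 3) to 17581 ± 977, the log2FC was 0.25 (SE 0.082, 95% interval 0.062 to 0.44, edgeR adjusted p = 0.126). NT and OXA libraries that share a number also shared part of their deviation from the group means. The sample titles number the replicates but state no pairing, which was inferred from these same counts. A model that takes the replicate number as a block gave the same log2FC of 0.25 and put MSN past the threshold (SE 0.050, edgeR adjusted p = 0.0218). Within the 3 same-numbered pairs MSN was 1.23-fold, 1.12-fold and 1.22-fold higher in OXA. Of the markers of leukocytes and endothelium, cells in which moesin is prominent, PTPRC had 0 to 2 raw counts per library, CD3E 0 to 1 and PECAM1 1 to 7, while CD68 had 152 to 237 and VWF 13 to 29.

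RDX did not follow the other 2 genes. NT libraries 1, 2 and 3 held 10062, 8054 and 7958 normalized counts of it, and OXA libraries 1, 2 and 3 held 8338, 7029 and 7484. The groups overlapped, because OXA library 1 lay above NT libraries 2 and 3, while NT library 1 stood above all others. The means were 8691 ± 1188 (SD, n = 3) and 7617 ± 664, with a log2FC of -0.19 (SE 0.12, 95% interval -0.47 to 0.089, edgeR adjusted p = 0.415). Without NT library 1 the log2FC was -0.071. Each OXA library nevertheless lay below the NT library of its number, at 0.829, 0.873 and 0.941 of it, and the block gave an edgeR adjusted p of 0.0598. Its transcript is poorer in G and C than the other 2 (37.4% in RDX, 50.7% in EZR and 48.4% in MSN). When trends of each library with GC content and length were removed beside the block, RDX passed at a log2FC of -0.11 (edgeR adjusted p = 0.0286). That fit called 3087 of the 13727 genes tested higher and 2964 lower.

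**Figure D1:**
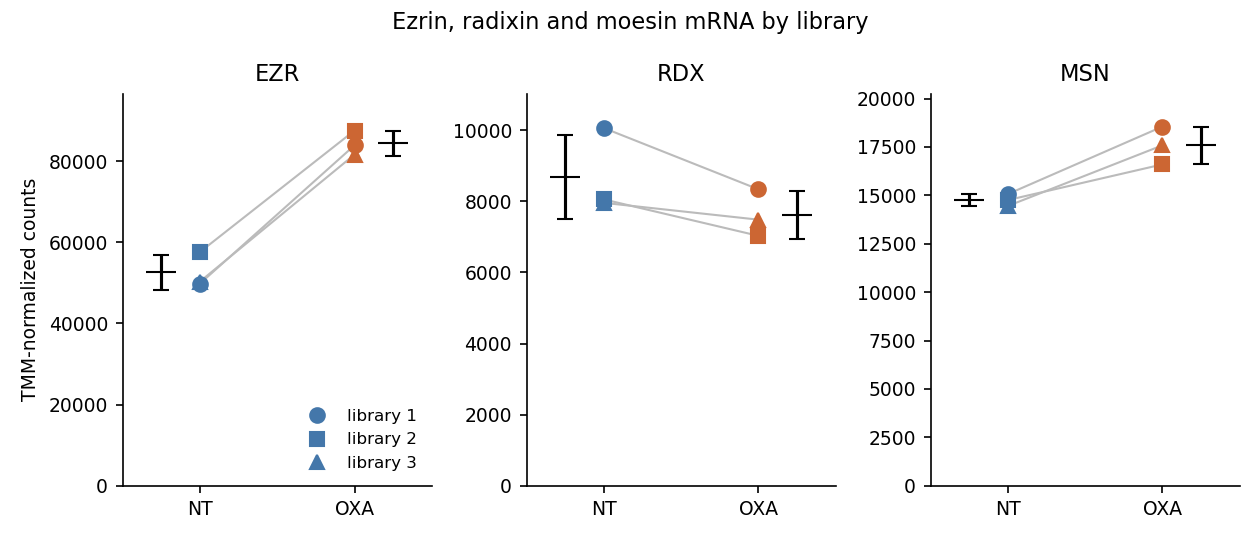
TMM-normalized counts of EZR, RDX and MSN, on axes that start at 0, for the 3 NT (blue) and 3 OXA (orange) libraries. Marker shapes and gray lines join libraries of the same number, and black bars beside the points give the mean and 1 SD of each group. All 3 lines go up for EZR and MSN, and all 3 go down for RDX, whose groups overlap.

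Of the 3 members, 1 (EZR) passed an edgeR adjusted p of 0.05, against a background of 5.07% of the 13727 genes tested, 2.78% higher and 2.29% lower. That EZR was higher in these libraries was known beforehand from the study. With the replicate block 2 of 3 passed, both higher, against 23.0% of all genes (12.1% higher and 10.9% lower). The groups did not overlap for 2 of 3, both with OXA above, against 28.9% of all genes, of which 14.5% lay above and 14.4% below. The split of all calls, 381 higher and 315 lower, turned to 348 and 493 under upper quartile factors and to 350 and 511 when library totals alone set the scale. The 3 members kept their signs under both.

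**Figure D2:**
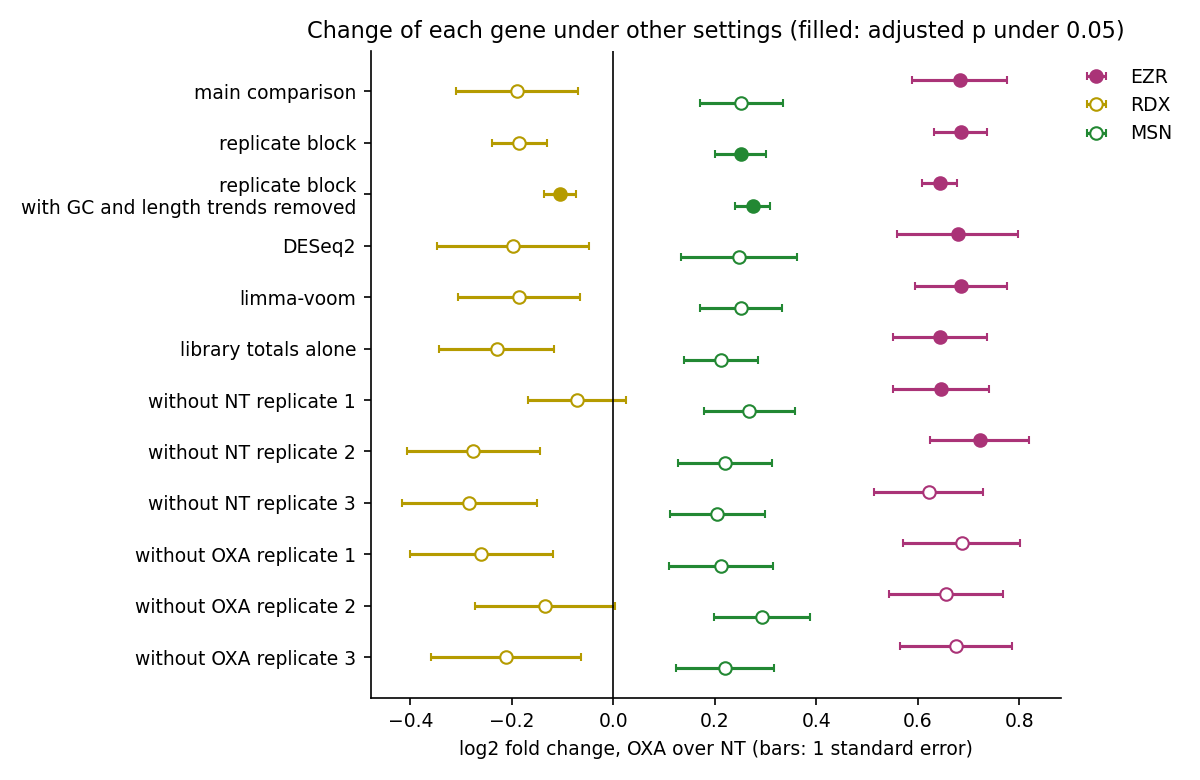
Log2FC, OXA over NT, of EZR (purple), RDX (yellow) and MSN (green) in the comparison as made and under 11 other settings, with bars of 1 SE and filled points where the adjusted p was under 0.05. EZR stays between 0.62 and 0.72, MSN between 0.21 and 0.29 and RDX between -0.28 and -0.071, and the 6 rows at the bottom leave out 1 library each.

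Dividing 1 member by another within a library removes the scale of the library, but not its trends with GC content or length. The NT libraries held 4.95, 7.15 and 6.33 EZR counts per RDX count, and the OXA libraries 10.1, 12.5 and 10.9. The EZR to RDX ratio was 1.83-fold higher in OXA, a difference of 0.87 on the log2 scale, and the groups were far apart. Leaving out 1 library put that difference between 0.72 (without NT 1) and 0.99. With the block and GC content and length trends removed, the log2FC was 0.64 for EZR and -0.11 for RDX. Per MSN count there were 3.31, 3.90 and 3.48 EZR counts in NT and 4.52, 5.28 and 4.64 in OXA, a 1.35-fold difference. In the same-numbered pairs the log2 EZR to MSN ratio differed by 0.45, 0.43 and 0.41, a narrow range. The RDX to MSN ratio was 0.668, 0.546 and 0.551 in NT and 0.449, 0.423 and 0.426 in OXA, or 0.739 of its NT level. For each of the 3 ratios the groups did not overlap, and the two-sided exact permutation p was 0.1 (0.1 after Benjamini-Hochberg adjustment over the 3), the smallest that 3 libraries against 3 can give.

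Levels of different genes can be set side by side only per length. In CPM per kilobase of the longest annotated transcript, EZR stood at 476 ± 39.5 (SD, n = 3) in NT and 765 ± 27.1 in OXA. MSN stood at 76.8 ± 1.60 and 91.5 ± 5.09, and RDX at 55.0 ± 7.52 and 48.2 ± 4.20. The order was EZR, then MSN, then RDX in both groups, and within each group the library ranges of neighbors in that order did not overlap. The sum of the 3 went from 608 ± 36.4 to 904 ± 23.3 CPM per kilobase. EZR made up 78.3 ± 2.14% of that sum in NT and 84.5 ± 1.17% in OXA, 6.27 percentage points more. The share of RDX went from 9.08 ± 1.49% to 5.33 ± 0.496%, and that of MSN from 12.7 ± 0.736% to 10.1 ± 0.682%, although the MSN level itself was higher in OXA. Groups did not overlap for any of the 3 shares (exact permutation p = 0.1 each, the smallest possible). The difference in the EZR share lay between 4.01 and 7.90 percentage points with other transcript lengths or none, and the order of the genes held with each.

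**Figure D3:**
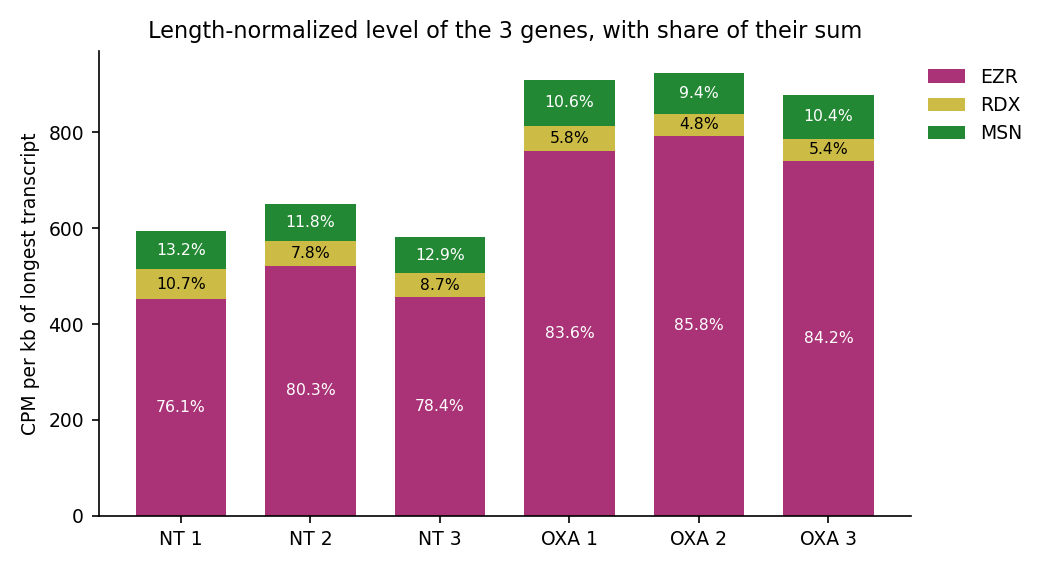
Stacked bars of the length-normalized level of EZR, RDX and MSN in each library, in CPM per kilobase of the longest transcript, with the share of each gene in the sum printed in its segment. The OXA bars are taller than the NT bars, and nearly all of the added height is EZR, whose share is 76.1% to 80.3% in NT and 83.6% to 85.8% in OXA.

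Around the members, 6 lists of genes of the same machinery were read, and each is given by its counts and its median beside the median log2FC of 0.023 over all genes tested. NT 1 stood apart from the other NT libraries. The chi-square per gene was 83.1 and 75.7 between NT 1 and the others, against 21.4 between NT 2 and NT 3. NT 1 was the lowest of the 6 libraries for 33.7% of all genes, and without it the median over all genes was -0.0031, so each list is also given without it. Without NT 1, 6784 of 13722 genes had a positive sign. The gene ranked 2861 of 13727 by p-value had an unadjusted edgeR p of 0.0462, so at least 2861 genes lay under 0.05. Other genes with a FERM domain were 41, of which 39 were tested. None rose and 1 fell, FARP1, an exchange factor for small GTPases, from 2563 ± 108 (SD, n = 3) to 1990 ± 30.9 normalized counts (log2FC -0.36, edgeR adjusted p = 0.0483). The median of the list was -0.031, or -0.023 without NT 1. With the replicate block 6 were higher and 4 lower, 25.6% of the list against 23.0% of all genes. PLEKHH1, which joins a FERM domain to pleckstrin homology domains, had a log2FC of -0.46 (edgeR adjusted p = 0.0683, and 0.0188 with the block). NF2 encodes merlin, the closest relative of the ERM proteins and an upstream part of the Hippo pathway. The NT libraries had 2580, 3246 and 3149 normalized counts of it and the OXA libraries 3573, 3804 and 3674. Its groups did not overlap, and its log2FC was 0.30 (SE 0.11, edgeR adjusted p = 0.152, and 0.0273 with the block).

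The switch enzymes are the kinases and phosphatase subunits that act on the ERM threonine and the kinases that make PIP2. None of the 13 tested, of 14, passed the edgeR test, 2 had an unadjusted p under 0.05, DESeq2 called none as well, and the median was -0.021, or 0.030 without NT 1. With the block 2 were higher and 1 lower, 23.1% of the list and close to the 23.0% of all genes. The 2 lowest p-values belonged to CDC42BPA, a kinase of the threonine, at a log2FC of 0.30 (edgeR adjusted p = 0.0797, and 0.0120 with the block), and PIP5K1A, which makes PIP2, at 0.32 (edgeR adjusted p = 0.127, and 0.00971 with the block). SLK, a principal ERM kinase in epithelia, was the gene lower with the block, at -0.20 (edgeR adjusted p = 0.0453 with the block and 0.286 without).

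Scaffolds and membrane partners are the proteins that the FERM domain holds. Of 16 listed, 10 were tested and none passed the edgeR test, although 8 of the 10 had a positive sign and the median was 0.41. At an unadjusted p under 0.05 there were 2. DESeq2 called 1 of the list higher, against 609 higher and 578 lower among the 19351 genes it tested. With the block 4 were higher and none lower (40% against 23.0%). NT 1 was the lowest library for 6 of the 10. Without it the median was 0.18 and 9 of the 10 had a positive sign, against 6784 of 13722 over all genes. ICAM1, an adhesion receptor for leukocytes, counted 264, 288 and 235 in NT and 500, 574 and 321 in OXA after normalization. It was above its NT range in each OXA library, but unevenly so, at a log2FC of 0.83 (edgeR adjusted p = 0.0793, and 0.0143 with the block). CD44, a hyaluronan receptor and a classical ERM partner, stood at 25530 ± 1993 (SD, n = 3) in NT and at 25436 ± 1297 in OXA, with overlapping groups.

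Genes of the microvillus were 16, of which 12 were tested, with 2 higher, none lower and a median of 0.23. NT 1 was the lowest library for 7 of the 12. Without it the median was 0.052 and 6 of the 12 had a positive sign, against 6784 of 13722 over all genes. With the block 3 were higher, 25% against 23.0% of all genes. EPS8L2, a relative of the actin regulator EPS8, counted 482, 1276 and 1028 in NT and 2178, 3219 and 2334 in OXA after normalization. The lowest NT value was that of library 1, and the groups were separate (log2FC 1.47, SE 0.33, edgeR adjusted p = 0.0483). MYO1A, the brush border myosin, was hit by 1, 3 and 2 raw counts in NT and by 13, 13 and 14 in OXA, a ratio of 6.83 with a 95% counting interval of 2.88 to 19.7 (edgeR adjusted p = 0.0218). It was therefore near silent in both groups, and the interval covers counting error only. With the block MYO6, a myosin that walks toward the minus end of actin filaments, was added at a log2FC of 0.43 (edgeR adjusted p = 0.00513 with the block and 0.0507 without). Villin (VIL1), the actin bundler that marks the intestinal brush border, was low, at 64 to 95 raw counts in NT and at 39 to 76 in OXA, and CDX1 was at 0 in all 6 libraries.

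All 7 genes of small GTPases and their regulators were tested, with none higher, 1 lower and a median of 0.21. Without NT 1, the lowest library for 4 of the 7, the median was 0.093. ARHGAP18, a GTPase-activating protein that ezrin binds, stood at 11657, 9994 and 10573 normalized counts in NT and at 7486, 6653 and 7612 in OXA. It was below its NT range in every OXA library (log2FC -0.57, SE 0.098, edgeR adjusted p = 0.0214). RHOC, a GTPase that drives actomyosin contraction, had a log2FC of 0.60 (edgeR adjusted p = 0.0808, and 0.0205 with the block), and its relative RHOB also passed with the block at 0.28 (edgeR adjusted p = 0.0320), but not when GC content and length trends were removed as well (0.11, edgeR adjusted p = 0.133). Together with ARHGAP18, 3 of the 7 passed with the block (42.9% against 23.0%). The study had already listed ARHGAP18 as down-regulated in these libraries. RHOA, the best known of them, stood at 32898 ± 3700 and 32812 ± 2148.

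Cortical actin genes were 20, all tested, with 1 higher, none lower and a median of 0.21, and 18 of the 20 had a positive sign. NT 1 was the lowest library for 13 of the 20. Without it the median was 0.15 and 16 had a positive sign, against 6784 of 13722 over all genes. ACTB, the main nonmuscle actin, stood at 64283, 95416 and 80490 normalized counts in NT 1, 2 and 3 and at 95201, 113665 and 89980 in OXA, with overlap. MYL6, a light chain of nonmuscle myosin, stood at 11058, 11677 and 12003 normalized counts in NT and at 16054, 15081 and 15326 in OXA. The groups stood well apart (log2FC 0.42, SE 0.080, edgeR adjusted p = 0.0293). With the block 5 were higher, 25% against 23.0% of all genes, among them ACTB, TPM4 and PFN1. With trends in GC content and length removed too, the log2FC of ACTB went from 0.33 to 0.17 and that of PFN1 from 0.25 to 0.11. Both still passed (edgeR adjusted p = 0.0044 and 0.0284). That fit called 13 genes of the list higher and 2 lower, against 3087 and 2964 of all 13727 genes. FARP1, EPS8L2, MYO1A, ARHGAP18 and MYL6, the 5 listed genes that passed the edgeR test without a block, all missed the threshold when NT 3 or any 1 OXA library was left out. Calls over all genes were fewer in those fits too.

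**Figure D4:**
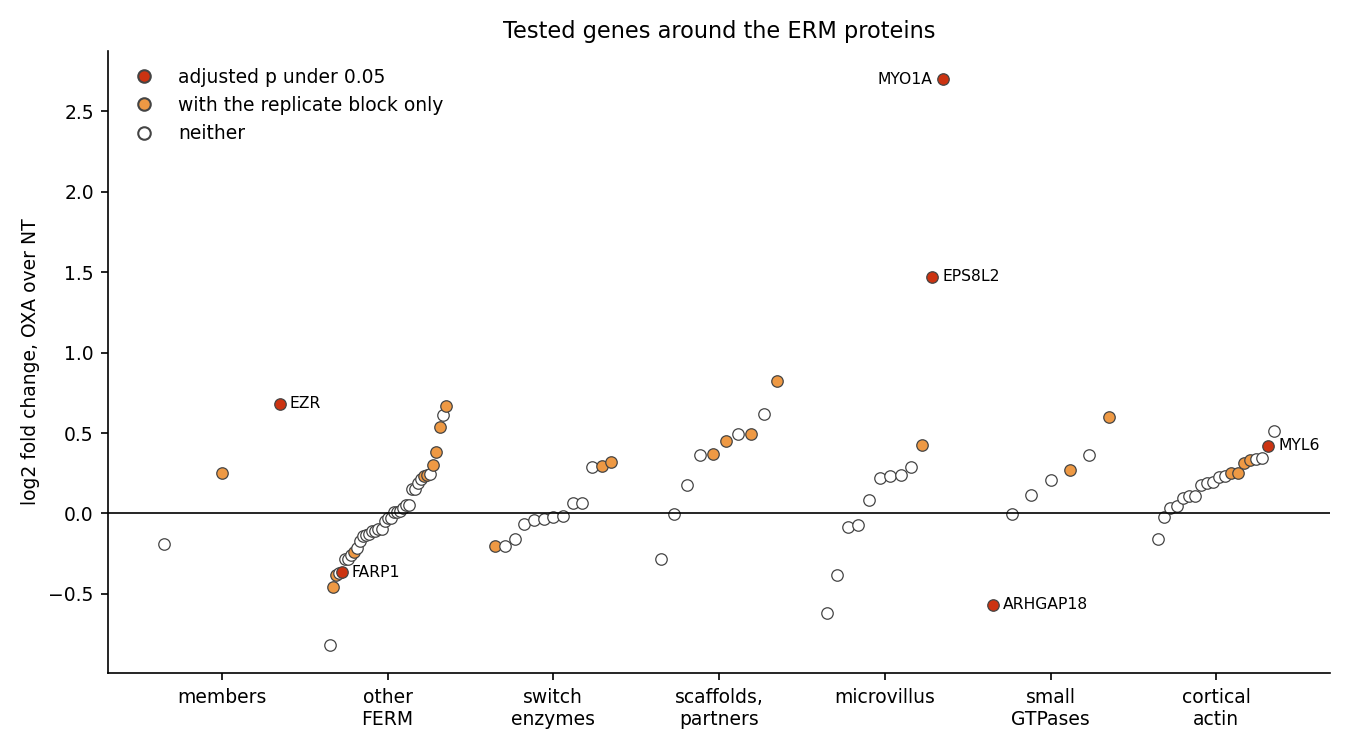
Log2FC, OXA over NT, of every tested gene of the members and of the 6 lists, sorted within each list. Red points passed an adjusted p of 0.05, orange points passed only with the replicate block, and white points passed neither. Of the members EZR is red, MSN orange and RDX white, and named red points elsewhere are FARP1, EPS8L2, MYO1A, ARHGAP18 and MYL6.

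The genes beside the members on their chromosomes were looked at after the values of EZR had been seen. SYTL3, a synaptotagmin-like RAB27 effector, ends 865 bases from the end of EZR on the opposite strand, and it rose from 1877 ± 89.7 (SD, n = 3) to 3087 ± 87.5 normalized counts (log2FC 0.72, SE 0.084, edgeR adjusted p = 0.00608). DYNLT1, a dynein light chain 120998 bases from EZR, rose from 2890 ± 138 to 4092 ± 109 (log2FC 0.50, edgeR adjusted p = 0.0174). On the other side RSPH3, a radial spoke protein 153503 bases away, had a log2FC of 0.26 and did not pass (edgeR adjusted p = 0.165), and TAGAP had 0 to 3 raw counts per library. The 3 tested neighbors of EZR thus all had higher OXA than NT values in every library. Over all genes tested, 14.5% had OXA above NT without overlap and 2.78% were called higher. Whether genes near EZR changed together was not tested. EZR-AS1 overlaps EZR on the opposite strand and had no row of its own. The library kit marks strand, but the strand setting of the counting is not given in the sources used here, so the share of antisense reads in EZR and of read-through between EZR and SYTL3 was not tested.

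**Figure D5:**
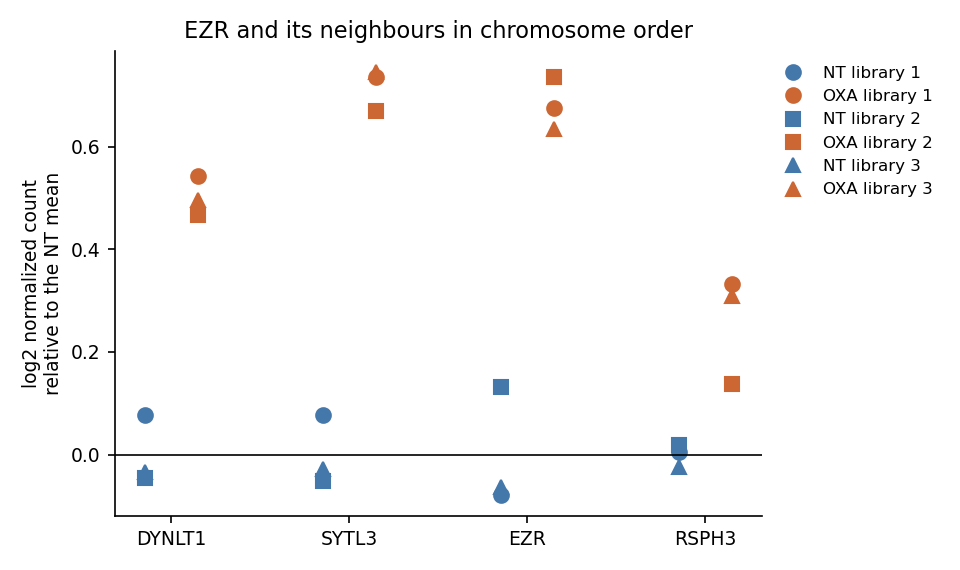
Log2 normalized count relative to the NT mean for EZR and its 3 tested neighbors, in chromosome order with equal spacing, for the NT (blue) and OXA (orange) libraries, with marker shapes for the library number. OXA points lie above all NT points for each of the 4 genes, farthest for SYTL3 and EZR and least for RSPH3.

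Neighbors of the other members were read in the same way. ZC3H12C, which overlaps RDX on the opposite strand, had a log2FC of 0.021 (edgeR adjusted p = 0.946), and FDX1, 133236 bases from RDX, one of 0.082 (edgeR adjusted p = 0.755). DDX10, an RNA helicase 923296 bases from RDX, had one of 0.23 (edgeR adjusted p = 0.436, and 0.0363 with the block). LAS1L, 53567 bases from MSN, had a log2FC of -0.0059 (edgeR adjusted p = 0.980). HEPH, which encodes a copper-dependent ferroxidase 420740 bases from MSN, was low, and fell from 37.3 ± 2.96 to 17.0 ± 2.34 normalized counts (log2FC -1.13, edgeR adjusted p = 0.0474). ZC3H12B, 80490 bases from MSN on the other side, was low as well, with a log2FC of -0.57 (edgeR adjusted p = 0.217).

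The genes whose profiles over the 6 libraries were most like those of the members were found by the root mean square difference of mean-centered log2 normalized counts, over 12065 genes with a mean of at least 50 normalized counts. For EZR they were MORC2, XPC and CCND1, with differences of 0.044, 0.051 and 0.055 on the log2 scale. CCND1, which encodes cyclin D1, went from 17473 ± 1038 (SD, n = 3) to 27932 ± 440 normalized counts. Those nearest to RDX were KPNB1, SMARCA5 and API5, at 0.014, 0.019 and 0.021. All 3 overlapped between the groups, as RDX did, and none passed the edgeR test, although SMARCA5 did with the block (edgeR adjusted p = 0.0470). Nearest to MSN were FAM227B, SNHG16 and CALR, at 0.015, 0.021 and 0.021, each with OXA above NT in every library and an edgeR adjusted p of 0.395, 0.141 and 0.120. With the block SNHG16 and CALR passed (edgeR adjusted p = 0.0199 and 0.0153). All of these genes were picked for the likeness of their profiles, so that they separated or passed as the member did follows from the choice.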

How the data were processed

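Polyadenylated RNA of 3 NT and 3 OXA libraries of HCT116 cells was analysed, and groups and replicate numbers came from the sample labels. Per the labels and the processing notes, the authors used Trimmomatic 0.32, STAR 2.7.5b, RSEM 1.3.3 and DESeq2 2.13 on GRCh38. The raw counts per gene that the authors deposited are whole numbers, and these were tested. The authors also deposited a normalized signal, the raw count times a factor specific to gene and library (0.791 to 1.11 for the members), used here as an alternative alone. Whether the counts are rounded RSEM estimates, and the strand setting, are not given in the sources used here.

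Genes were filtered with filterByExpr (minimum count 10, minimum total 15), scaled by TMM and tested with the quasi-likelihood F-test of edgeR, and p-values were adjusted over 13727 genes by the Benjamini-Hochberg method (R 4.3.3, edgeR 4.0.16, limma 3.58.1, DESeq2 1.42.0). Ratios and shares were tested with two-sided exact permutation tests. The steps were tested on simulated data. Lengths and positions came from GENCODE v44. NHERF1, NHERF2 and PTPN21 were matched by gene identifier, and no pseudogene of the members had a row. MYO7B was kept with the microvillus genes.

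The members and lists were chosen with earlier results of these data known. Named were the members, NF2, listed genes with an adjusted p under 0.05 (the 2 lowest p where a list had fewer than 2) and the 3 nearest profiles, except for a few genes not reported here. SLK, CD44, MYO6, VIL1, RHOA, RHOB, ACTB, TPM4, PFN1 and the chromosomal neighbors were added after their values were seen. Deviations of same-numbered NT and OXA libraries from their group means correlated at 0.51, 0.50 and 0.28 across genes, all over the limit of 0.1, and at -0.44 to 0.083 between other numbers. The numbers were therefore taken to pair the libraries, which the sample titles do not state. Blocked values accompany results whose call they change. Library totals of 32979521 to 40967880 counts left little counting error for the members, and intervals cover counting error only where said so. Alternatives were other scalings and filters, DESeq2, limma-voom, other edgeR fits, the block, the block with GC content and length trends removed, the authors' values, and each library left out. The MANE Select length for the EZR share was added after the data were seen.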

Additional observations from a re-analysis of the deposited data

How the results depend on the processing

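EZR, RDX and MSN kept their signs under all 13 alternatives that used every library and when each library was left out. EZR missed the threshold only against a 1.5-fold change, with the same log2 fold change of 0.68 (glmTreat adjusted p = 1.00), and in 4 of 6 fits that left out 1 library, where its value lay between 0.62 and 0.72. The replicate block brought MSN past it (log2 fold change 0.25, edgeR adjusted p = 0.0218). The block with GC content and length trends removed did so for MSN (0.27, edgeR adjusted p = 0.000602) and for RDX (-0.11, edgeR adjusted p = 0.0286). For the ratios a block allows only sign flips of 3 pairs, and the smallest p is then 0.25.

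The other FERM-domain genes past the threshold, 1 in the comparison as made, numbered 2 under upper quartile factors, a filter of 1 CPM and DESeq2, 0 without a filter, with limma-voom, with glmTreat and with the authors' values, 10 with the block and 13 with the block and trends removed. Microvillus genes, 2 as made, numbered 1 under upper quartile factors, the filter of 1 CPM, the robust edgeR fit and the authors' values, 0 with glmTreat, 3 with the block and with the edgeR fit with legacy off, and 8 with the block and trends removed. Genes of small GTPases, 1 as made, numbered 2 with DESeq2, 0 with glmTreat and 3 with both blocked fits. Cortical actin genes, 1 as made, numbered 0 with glmTreat and the authors' values, 5 with the block and 15 with trends removed too. Switch enzymes went from 0 to 3 and 7 in the blocked fits, and scaffolds and partners from 0 to 4 and 7, with 1 under DESeq2. Over all 13727 genes tested, the block called 1664 higher and 1493 lower, and the block with trends removed 3087 and 2964. Leaving out 1 library gave 0 to 4 FERM-domain genes, 0 to 1 switch enzymes, 0 to 3 microvillus genes, 0 to 2 small GTPase genes, 0 to 1 cortical actin genes and 0 scaffolds. The block changed no other call of a member. The cause was not tested.

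Over all genes, 381 higher and 315 lower calls became 609 and 578 with DESeq2, which tested 19351 genes and not 13727. They were 41 and 9 with glmTreat and 1664 and 1493 with the block. With the block and trends removed they were 3087 and 2964, and with the authors' values 233 and 186. Without OXA 1 they were 66 and 19, and without NT 1 they were 623 and 571, with 5 libraries in each. Depth limits what can be said of MYO1A, at 1 to 14 raw counts, and of the listed genes too low to be tested.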
